A study of Mus musculus with 8 samples.

Results

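The ATF and CREB family of transcription factors was followed in embryonic mouse heart as 10 genes chosen by name: Atf4 itself and 9 relatives, Atf5, Atf3, Atf1, Atf2, Atf7, Creb1, Creb3, Crem and Jdp2. All 10 were found among the 52778 features of the deposited expression table, 1 feature for each, and all 10 were expressed enough to be tested with 15545 genes in total. The RNA came from ventricles of C57BL/6 embryos at embryonic day 11.5, with 4 libraries from controls and 4 from embryos homozygous for a 7-base deletion that CRISPR/Cas9 made in exon 3 of Atf4. The deletion is present in all tissues, shifts the reading frame to an early stop and, by the study's design text, leaves the polyadenylation signal as it was. Each group is described as 4 biological replicates. No drug or other treatment was given to either group. The genotype field reads wild type for all 8 samples, so the groups rest on the sample titles, and the extraction text names cortical neurons in place of heart. The comparison asks whether any relative changes along with the Atf4 transcript.

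These proteins share a basic leucine zipper, a helix whose basic part contacts DNA and whose zipper holds a partner protein, so members of different subfamilies can pair. CREB1, ATF1 and CREM bind the cAMP response element (CRE) and are switched on by phosphorylation downstream of cAMP, while ATF2 and ATF7 are activated by stress kinases and JDP2 represses AP-1 and ATF sites. ATF4 is made in larger amounts when translation initiation is slowed by stress, because short upstream reading frames then stop blocking its start codon, and ATF5 is controlled in the same way. With C/EBP partners, ATF4 binds a composite C/EBP-ATF site in genes for amino acid supply, and Atf3 is among the genes it is known to switch on.

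Exon 3 of Atf4 spans bases 80256634 to 80257541 of chromosome 15 and holds 824 of the 1047 coding bases of the main transcript (GENCODE M21, GRCm38). The position of the deletion within it is not given in the sources used here. Because the targeted protein is a DNA-binding factor, the DNA before the start of each family gene was searched on both strands for 4 motifs: the full CRE (TGACGTCA), its half-site (TGACG), the AP-1 site (TGANTCA) and the C/EBP-ATF site (TGATGNAA). RefSeq starts on GRCm38.p6 were matched for 9 of the 10 genes, all but Crem, and the 250 bases before each start were used. For Creb3 and the first start of Jdp2, the tested bases after the start were not found in a GENCODE transcript of the gene. Part of these 250 bases is shown for the 3 genes with the largest differences in expression, in lower case with the matches in capitals. The Atf4 stretch covers bases -130 to -1, and those of Atf3 and the second start of Jdp2 cover bases -130 to -11. A half-site match of Atf3 at bases -7 to -3 therefore lies outside its printed stretch.
Atf4, chr15:80255054-80255183, plus strand: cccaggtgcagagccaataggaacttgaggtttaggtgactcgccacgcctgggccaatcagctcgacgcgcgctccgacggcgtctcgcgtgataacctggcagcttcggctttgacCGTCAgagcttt
Atf3, chr1:191183344-191183463, minus strand: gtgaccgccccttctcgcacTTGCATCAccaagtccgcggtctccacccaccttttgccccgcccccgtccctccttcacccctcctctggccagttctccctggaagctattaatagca
Jdp2, chr12:85599286-85599405, plus strand: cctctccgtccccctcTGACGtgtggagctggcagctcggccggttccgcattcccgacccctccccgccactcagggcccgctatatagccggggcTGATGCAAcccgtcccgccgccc

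The C/EBP-ATF site was found before Atf3, from base -110 to base -103 counted from the start, and before the second of 3 listed starts of Jdp2, from base -33 to base -26. It was found before no other of the 9 genes searched. The Jdp2 match lies after the first listed start and within the listed feature, which begins at base 85598656. The 8 letters are the same in both genes, on the strand opposite to the gene in Atf3 and on the gene's own strand in Jdp2. They are shown side by side with 10 bases on each side.
Atf3, chr1:191183426-191183453, plus strand: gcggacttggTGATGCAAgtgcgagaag
Jdp2, chr12:85599373-85599400, plus strand: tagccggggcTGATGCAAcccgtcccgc
Of all 32851 start windows of this length, 3.45% held the site and 0.791% held these exact 8 letters on either strand. A CRE half-site lay before Atf4 (bases -12 to -8), Atf3 (-7 to -3), Atf1 (-90 to -86) and the second start of Jdp2 (-114 to -110), and in 17.8% of all windows. No window of a family gene held the full CRE or the AP-1 site. The search was made with the expression results known. A match is a stretch of letters and not evidence of binding.

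**Figure D1:**
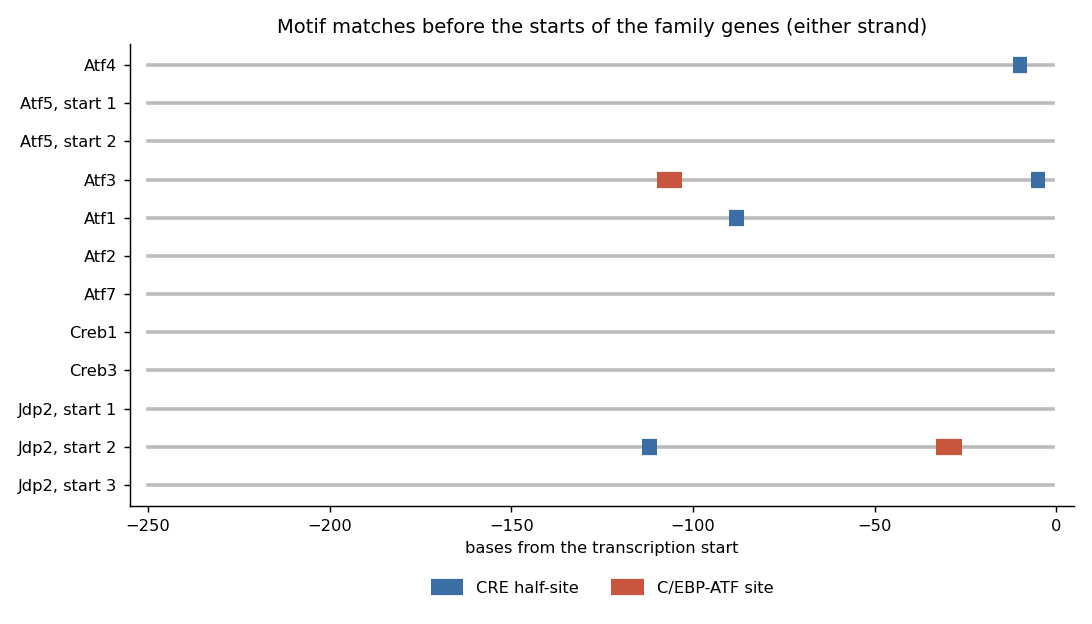
Matches to the CRE half-site (blue) and the C/EBP-ATF site (red) in the 250 bases before each listed start of 9 family genes, with the distance from the start in bases on the x axis and 1 line for each start. The C/EBP-ATF site appears on the lines of Atf3 and the second start of Jdp2.

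Expression is given in TPM, a unit of transcript abundance that allows for gene length as well as library size, so levels can be compared between genes. TPM keeps no read depth, and the spread over the 4 libraries of a group is the error used. The heart label was checked against marker genes. All 9 genes of a ventricular cardiomyocyte list were above 1 TPM in every library. Their summed levels were 36672 to 39055 TPM in controls and 35856 to 38652 TPM in mutants. Actc1 alone held a mean of 13506 TPM in controls. Of 9 cortical neuron markers, 8 stayed under 1 TPM in every library, and Neurod6 was listed at 0 throughout. The exception was Tubb3, at 7.06 to 11.8 TPM over the 8 libraries. Of 6 atrial markers, 5 were above 1 TPM in every library, while Sln stayed under 1 TPM in every library. The atrial sums were 9720 to 11167 TPM in controls and 10555 to 11361 TPM in mutants, mostly from Myl4, Myl7 and Nppa. Genes on both lists, such as Actc1 and Myl7, are not confined to 1 kind of chamber. The data therefore do not show whether atrial tissue was present or absent, and the sums do not show how much there was. In bulk tissue, fewer cells of a type and less RNA per cell cannot be told apart.

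Atf4 was the family member with the highest level and rose in the mutants. The gene lies on chromosome 15 from base 80255184 to base 80257545. Its level was 105, 121, 115 and 105 TPM in control replicates 1 to 4, against 166, 164, 185 and 148 TPM in mutant replicates 1 to 4. Every mutant value lay above every control value, with mutant replicate 3 the highest and mutant replicate 4 the lowest of the mutants. The mean was 48.6% higher, at 166 ± 15.1 against 112 ± 8.07 TPM (SD, n = 4 each). The difference on the log2(TPM + 1) scale was 0.57, with a 95% interval of 0.41 to 0.72 (limma, adjusted p of 0.0430 over all 15545 genes). Over all genes tested, 0.0386% passed this threshold in either direction and 0.00643% passed it upward, which is Atf4 alone, while 0.0322% passed it downward. With quantile normalization, or with mitochondrially encoded and haemoglobin genes taken out of the scaling, the 6 calls over all genes were 0 higher and 6 lower in place of 1 and 5. The Atf4 call was lost in several alternatives, among them the leaving out of any 1 library other than mutant replicate 4 (adjusted p of 0.101 to 0.184), while the difference stayed between 0.51 and 0.62.

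No relative passed the adjusted threshold, a count of 0 of 9 in limma. At an unadjusted p below 0.05 there were 3 of 9 relatives, Atf3, Atf5 and Jdp2, all with lower values in the mutants, where 3.45% of all genes were lower at that level, 2.65% were higher and 6.1% differed in either direction. The median difference of the 9 relatives was -0.0033 on the log2 scale, against -0.0033 for all genes tested. In 2 relatives, Atf3 and Jdp2, the mutant values lay wholly below the control values, which 2.05% of all genes did, and 3.68% were separate in either direction. These members were proposed with earlier results of the same libraries known, so their counts are descriptions.

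Atf3, an early stress-response factor, was measured at 16.1, 16.5, 16.3 and 16.9 TPM in the controls and at 14.3, 11.02, 13.6 and 14.6 TPM in the mutants. The controls were tightly grouped, the groups were separated by 1.48 TPM, and mutant replicate 2 was the lowest. The means were 16.4 ± 0.350 and 13.4 ± 1.63 TPM (SD, n = 4 each), 18.6% apart. The log2 difference was -0.29 with a 95% interval of -0.47 to -0.10 (limma, unadjusted p of 0.00611, adjusted p of 0.742). Without mutant replicate 2 it was -0.20 (unadjusted p of 0.00470). Atf3 lies on chromosome 1 from base 191170296 to base 191183333 and no other listed feature shares bases with it. Its neighbour Batf3, another zipper gene 61352 bases away, held 2.11 ± 0.384 and 2.16 ± 0.933 TPM, with overlapping groups.

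Jdp2, the repressor of AP-1 and ATF sites, had the largest coefficient of variation of the family in both groups, 16.5% in controls and 32.7% in mutants. The controls held 9.92, 8.44, 7.33 and 10.7 TPM and the mutants 7.11, 3.11, 7.29 and 6.43 TPM. The groups were separated by only 0.0421 TPM, between control replicate 3 and mutant replicate 3, and mutant replicate 2 was again the lowest. The means were 9.09 ± 1.496 and 5.98 ± 1.95 TPM (SD, n = 4 each), and the log2 difference was -0.57 with a 95% interval of -1.06 to -0.084 (limma, unadjusted p of 0.0262, adjusted p of 0.802). Leaving out mutant replicate 2 moved it to -0.33 (unadjusted p of 0.0230), a reduction of over 1.5 times. Jdp2 lies on chromosome 12 from base 85598656 to base 85639878. Batf, 46841 bases away, held 3.78 ± 0.657 and 3.46 ± 0.492 TPM, with overlapping groups.

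Atf5, the closest relative of Atf4 in its control by translation, held 23.2, 24.4, 22.9 and 26.3 TPM in the controls and 23.6, 20.5, 20.8 and 17.8 TPM in the mutants. The groups overlapped through mutant replicate 1, which lay above control replicates 1 and 3. The log2 difference was -0.22 with a 95% interval of -0.40 to -0.040 (limma, unadjusted p of 0.0220, adjusted p of 0.800). Atf5 occupies bases 44812256 to 44816658 of chromosome 7 on the minus strand, and its first bases are shared with Nup62 and Il4i1b on the other strand. Nup62 held 48.6 TPM in controls and 47.5 TPM in mutants on average. The study's design text names a stranded kit for polyadenylated RNA and the sample labels name depletion of ribosomal RNA, and whether reads were counted by strand is not given in the sources used here. The Atf5 value can therefore hold reads of Nup62.

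Levels of other cell types were set beside these 3 genes. The summed level of 8 macrophage markers ranged from 11.6 to 21.4 TPM in the controls and from 8.07 to 12.0 TPM in the mutants. It was lowest in mutant replicate 2, the library with the least Atf3 and Jdp2. The summed erythroid and ventricular markers were also lowest of all 8 libraries there, at 4312 and 35856 TPM. Of the 6 macrophage markers expressed enough to be tested, 3 (Cx3cr1, Mrc1 and C1qb) had mutant values wholly below the controls. Over all genes 2.05% did so. These 3 were low, at mutant means of 0.580, 0.946 and 1.79 TPM against 1.41, 1.99 and 4.04 TPM in controls. None of the 3 passed the adjusted threshold (limma, adjusted p of 0.573, 0.573 and 0.720). For C1qb the highest mutant value was 2.45 TPM and the lowest control value 2.54 TPM. The other tested markers overlapped, and Lyve1 was level at 3.00 TPM in controls and 3.01 TPM in mutants. The summed levels overlapped through control replicate 4 and mutant replicate 4. The summed erythroid markers ranged from 4619 to 7857 TPM in controls and from 4312 to 5989 TPM in mutants. The endocardial and endothelial sum covered 663 to 728 TPM and 637 to 712 TPM, and the epicardial sum 242 to 270 TPM and 236 to 262 TPM. The part of these cells in the values of Atf3, Jdp2 and Atf5 was not tested.

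**Figure D2:**
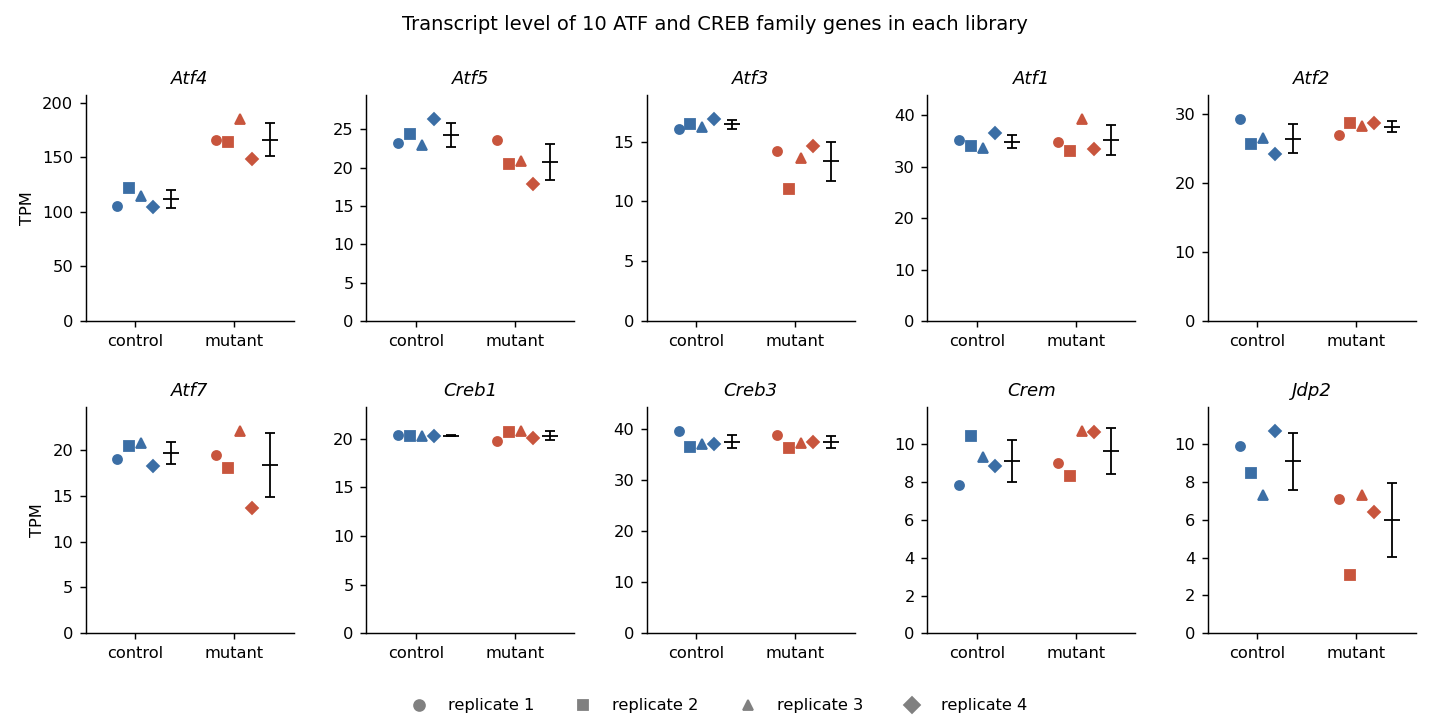
TPM of each of the 10 family genes (y axis from 0, a scale of its own in each panel) in the 4 control (blue) and 4 mutant (red) libraries, with symbols for the replicate number and black bars for the mean ± SD. The groups are separate for Atf4, Atf3 and Jdp2 and overlap in the other panels.

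The CRE-binding activators did not differ by more than their error. Their genes lie on chromosome 1 from base 64532794 to base 64604548 (Creb1), on chromosome 15 from base 100227859 to base 100261248 (Atf1) and on chromosome 18 from base 3266354 to base 3337773 (Crem). Creb1, the central activator of the cAMP response, held 20.2 to 20.3 TPM in the 4 controls and 19.8 to 20.8 TPM in the 4 mutants. Its log2 difference was 0.0010 with a 95% interval of -0.088 to 0.090 (limma, adjusted p of 0.998). Its coefficient of variation in the controls, 0.197%, was the smallest of the family. Atf1, which pairs with CREB1, held 35.1, 34.1, 33.6 and 36.5 TPM in controls and 34.9, 33.0, 39.3 and 33.4 TPM in mutants, with a log2 difference of 0.0094 (95% interval -0.12 to 0.14). A processed copy of the gene, Atf1-ps, was listed at 0.606 to 1.54 TPM. How reads that match both copies were assigned is not given in the sources used here, so the Atf1 level is uncertain to that extent. Crem, which encodes both activators and repressors of the CRE, held 7.84 to 10.5 TPM in controls and 8.31 to 10.7 TPM in mutants. Its log2 difference was 0.075 with a 95% interval of -0.16 to 0.31, and the table gives the gene as a whole, so its activator and repressor forms cannot be told apart.

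The stress-kinase targets Atf2 and Atf7 differed in opposite directions, and neither difference exceeded its error. Atf2 spans bases 73816509 to 73892677 of chromosome 2 and Atf7 spans bases 102525946 to 102625464 of chromosome 15. Atf2 held 29.3, 25.7, 26.5 and 24.2 TPM in controls and 27.0, 28.7, 28.2 and 28.8 TPM in mutants. Its mutant values were closely grouped inside the control range, and the log2 difference was 0.091 (95% interval -0.039 to 0.22, limma, unadjusted p of 0.149). Atf7 held 19.0, 20.4, 20.8 and 18.3 TPM in controls and 19.5, 18.0, 22.0 and 13.7 TPM in mutants. Its highest and lowest values were both in mutants, in replicates 3 and 4, the same libraries that held the most and the least Atf4 among the mutants. The log2 difference of Atf7 was -0.11 (95% interval -0.38 to 0.16), and it became 0.013 without mutant replicate 4. Creb3, a factor held in the membrane of the endoplasmic reticulum until it is cut free, held 36.6 to 39.6 TPM in controls and 36.3 to 38.9 TPM in mutants. Its log2 difference was -0.0033 with a 95% interval of -0.094 to 0.088. The end of Creb3 (chromosome 4, bases 43562658 to 43567061) is shared with Gba2 on the other strand, at 28.8 TPM in controls and 27.6 TPM in mutants.

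**Figure D3:**
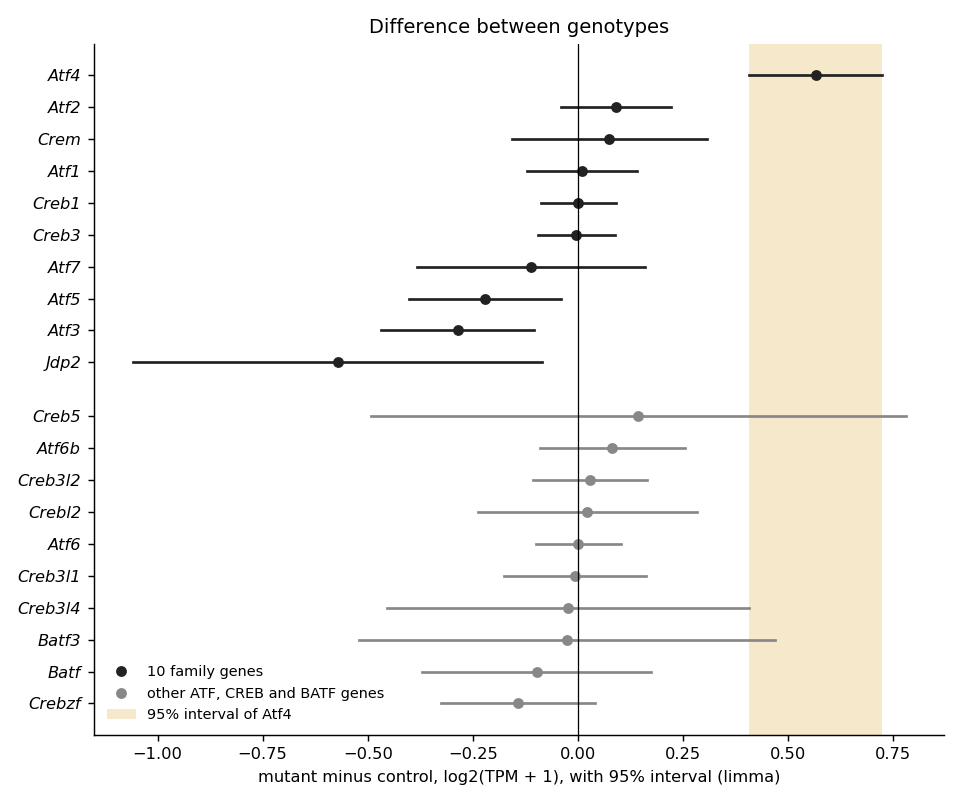
Difference between mutants and controls on the log2(TPM + 1) scale (x axis) with its 95% limma interval for the 10 family genes (black) and 10 other ATF, CREB and BATF genes (grey), with the interval of Atf4 shaded. The intervals of all 9 relatives end below the lower bound of Atf4, 0.41, and those of Atf3, Atf5 and Jdp2 lie below 0.

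The change of Atf4 was set against that of each relative as the log2 ratio of Atf4 to the relative in each library. In all 9 comparisons the lowest mutant ratio lay above the highest control ratio. All 9 ratios hold the same Atf4 values, whose groups were already separate, so their separation is a description and restates the rise of Atf4 for any relative that stayed level or was lower. The change of Atf4 exceeded that of Atf2 by the least, 0.47 on the log2 scale, and that of Jdp2 by the most, 1.14. It exceeded the changes of Creb1, Creb3 and Atf1 by 0.56, 0.57 and 0.56, close to the difference of Atf4 itself. For Atf5 and Atf3 the gap was 0.79 and 0.85. The highest upper bound among the relatives was that of Crem, 0.31, so none of the 9 intervals reached the interval of Atf4.

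**Figure D4:**
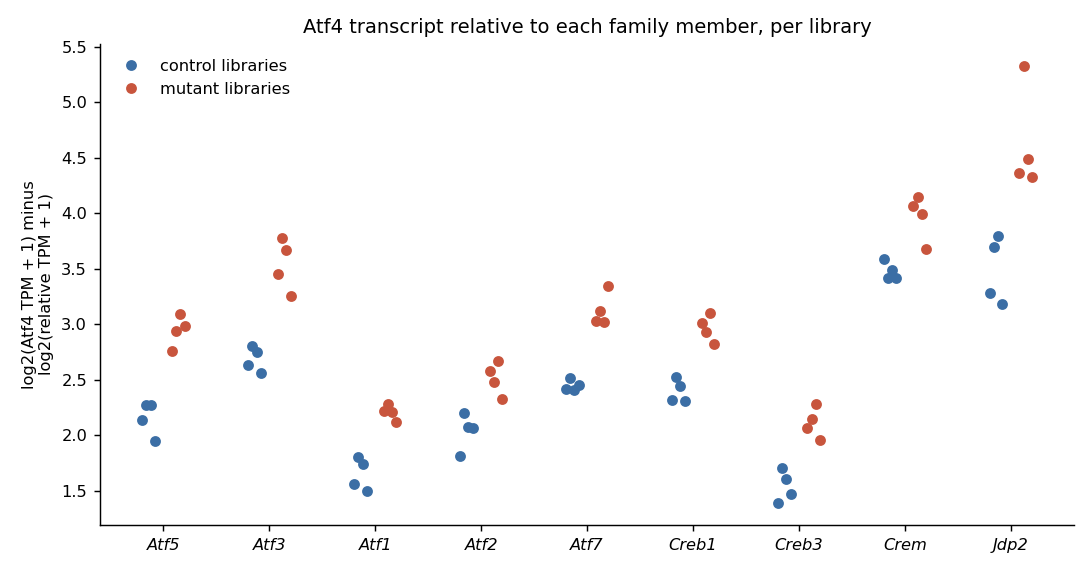
Log2(Atf4 TPM + 1) minus log2(relative TPM + 1) on the y axis for each of the 9 relatives, with 1 point for each control (blue) and mutant (red) library. For every relative the 4 mutant points lie above the 4 control points, and the shift ranges from 0.47 for Atf2 to 1.14 for Jdp2.

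The order of mean levels was the same in both genotypes. In controls Atf4 (112 TPM) was followed by Creb3 (37.6), Atf1 (34.8), Atf2 (26.4), Atf5 (24.2), Creb1 (20.3), Atf7 (19.6), Atf3 (16.4), Crem (9.13) and Jdp2 (9.09 TPM). Among neighbours in that order, the libraries of Atf2 and Atf5, of Creb1 and Atf7, and of Crem and Jdp2 overlapped. In mutants the neighbours that overlapped were Creb3 and Atf1, Atf5 and Creb1, Creb1 and Atf7, and Atf7 and Atf3. There Jdp2 (5.98 TPM) was clear of Crem (9.67 TPM) in every library, as was Atf5 (20.7 TPM) of Atf2 (28.2 TPM). The 9 relatives summed to 198 ± 2.70 TPM in controls and 189 ± 9.55 TPM in mutants (SD, n = 4 each), with overlapping ranges of 194 to 200.3 and 179 to 200.03 TPM. Atf4 thereby made up 36.1% ± 1.89 of the summed TPM of these 10 genes in controls and 46.7% ± 1.54 in mutants. Other ATF and CREB genes are not in that sum.

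Further relatives were described from a list of 12 other ATF, CREB and BATF genes; 10 of them passed the filter on low values. None passed the adjusted threshold and none had an unadjusted p below 0.05, a count of 0 in limma for each, and the groups overlapped in all 10. Creb3l2, a membrane-held factor of secretory cells, came next after Atf4 in level among the 10 family genes and this list, at 93.4 ± 6.89 TPM in controls and 95.2 ± 5.72 TPM in mutants. The endoplasmic reticulum stress sensors Atf6 and Atf6b held 23.3 ± 0.996 and 41.9 ± 3.13 TPM in controls and 23.4 ± 0.533 and 44.4 ± 4.41 TPM in mutants. The difference closest to the threshold was that of Crebzf, at -0.14 (33.7 ± 2.61 against 30.5 ± 3.42 TPM, unadjusted p of 0.114). Creb3l1, Batf, Creb5, Crebl2, Batf3 and Creb3l4 differed by between -0.098 and 0.14. The intervals were wide for the low genes: that of Creb5 ran from -0.49 to 0.78 and so did not exclude a change as large as that of Atf4. Creb3l3 and Batf2 stayed under 1 TPM.

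Genes whose proteins pair with these factors were examined as 3 lists, and the count past the adjusted threshold in limma was 0. In the C/EBP list and in the Jun and Fos list 1 gene each was higher at an unadjusted p below 0.05, as were 2.65% of all genes. Among 4 tested C/EBP genes, Cebpb held 3.22 ± 0.547 TPM in controls and 4.27 ± 0.455 TPM in mutants (log2 difference 0.32, unadjusted p of 0.0166, adjusted p of 0.780), and Cebpg, a known partner of ATF4, 14.2 ± 1.06 and 13.3 ± 0.745 TPM. Among 5 tested Jun and Fos genes, Fos held 4.20 ± 1.05 and 5.36 ± 0.175 TPM (log2 difference 0.31, unadjusted p of 0.0442) and Junb 5.18 ± 0.650 and 5.32 ± 0.574 TPM. In the list of NRF, Maf and Bach genes, Maf held 4.83 ± 0.736 and 3.93 ± 0.219 TPM (log2 difference -0.23, unadjusted p of 0.0405, adjusted p of 0.809). The medians of the C/EBP list and of the Jun and Fos list were -0.0061 and 0.024.

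Proteins that act on the family likewise gave 0 adjusted calls in limma, with 2 genes, the 2 named next, at an unadjusted p below 0.05. Of all genes tested, 6.1% reached that level in either direction. Among 11 tested coactivators and binding partners, Btrc, part of the ligase that marks ATF4 for degradation, held 8.404 ± 1.72 TPM in controls and 10.9 ± 1.21 TPM in mutants (log2 difference 0.35, unadjusted p of 0.0244, adjusted p of 0.800). Atf7ip, a chromatin protein that binds ATF7, held 52.8 ± 2.81 and 46.2 ± 5.15 TPM (log2 difference -0.19, unadjusted p of 0.0273, adjusted p of 0.807). Both had overlapping groups, and the median of the list was -0.0019. Among 11 tested kinases of CREB and ATF2 and their regulatory subunits the differences ran from -0.041 to 0.067 and none had an unadjusted p below 0.05. The leading ones were Prkar2a, a regulatory subunit of protein kinase A, at 46.5 ± 1.05 and 48.9 ± 3.42 TPM, and Prkaca, its catalytic subunit, at 133 ± 2.82 and 129 ± 7.08 TPM.

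Target genes of the different factors were then counted side by side. Of 15 tested ATF4 targets, 2 passed the adjusted threshold, both lower: Phgdh, for the first enzyme of serine synthesis, at 61.2 ± 1.90 and 44.1 ± 1.93 TPM (adjusted p of 0.00883, limma), and Aldh1l2, for a mitochondrial folate enzyme, at 21.2 ± 0.384 and 15.3 ± 1.05 TPM (adjusted p of 0.0430). Over all genes 0.0322% were lower at that threshold. Both calls were lost without a filter on low values, without a variance trend and without control replicate 2, 3 or 4, and the count over all the lists was 1 without any 1 of the other libraries. At an unadjusted p below 0.05, 7 of the 15 were lower, against 3.45% of all genes, and none, a count of 0, was higher, against 2.65%. The list's median was -0.13. Of 11 tested cAMP-responsive targets of CREB none passed either threshold, a count of 0 in limma, and the median was 0.062. The 2 nearest were Sik1, a kinase that damps the cAMP response, at 27.5 ± 2.66 and 30.3 ± 1.46 TPM, and Nr4a2, a nuclear receptor, at 2.39 ± 0.567 and 2.92 ± 0.361 TPM. Of 9 mitochondrial chaperones and proteases linked to ATF5, likewise none passed either threshold, a count of 0, with a median of 0.041. Hspd1, the mitochondrial chaperonin, held 619 ± 29.4 and 652 ± 5.75 TPM, and the protease gene Yme1l1 55.9 ± 1.66 and 58.6 ± 1.70 TPM.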

How the data were processed

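RNA-seq of 8 libraries, 4 per genotype, was used as TPM values deposited by the authors in 1 table, without rescaling. Per the submitters' processing notes the tools included Trim Galore 0.6.7, HISAT2 2.2.1 and StringTie 2.2.1 on GRCm38; which of them made the TPM values, the annotation, the strand setting and the treatment of reads with several matches are not given in the sources used here. Read depth is unknown, so no counting error is given.

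The analysis used log2(TPM + 1). Fold differences on this scale understate changes of low genes. A gene was tested if 4 or more of the 8 libraries held 1 TPM or more, which left 15545, in limma 3.58.1 (R 4.3.3) with a mean-dependent variance, no covariate, two-sided p-values and Benjamini-Hochberg adjustment at 0.05. The 95% intervals are not adjusted. An exact permutation test of the ratios of Atf4 to each relative was run but is not given, because every ratio holds the same Atf4 values. Motifs were searched in RefSeq start windows.

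The members and lists were chosen with earlier results of these data known. All members and all tested genes of the wider ATF, CREB and BATF list are named. In each other list the genes with an adjusted p below 0.05 (at most 3), or else the 2 with the smallest p, are named, except for 1 result that is not reported here. The genes most like Atf4 are the 4 with the highest correlation of log2 values after subtraction of group means. Cell type markers are given as sums per library. The motifs and the comments on Atf1-ps, Nup62, Il4i1b and Gba2, were added after expression values were seen. Alternatives were another pseudocount, 2 filters, 3 scalings, no variance trend, library weights, a replicate block and each library left out.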

Additional observations from a re-analysis of the deposited data

Results flagged for a closer look

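A check for 1 library standing apart from the other 3 of its genotype was made on 72 groups, covering the family and the named list genes. It marked 4 groups, where 3.6 would be marked by chance at its 5% rate. Among the controls, replicate 1 had 39.6 TPM of Creb3, above the 36.6 to 37.1 TPM of replicates 2 to 4. The same library had 4.22 TPM of Creb5, below the 6.93 to 7.14 TPM of its group. Among the mutants, replicate 1 had 3.98 TPM of Crebl2 (2.58 to 2.79 TPM in the rest) and replicate 2 had 5.10 TPM of Fos (5.43 to 5.48 TPM in the rest). No group of Atf4, Atf3, Jdp2 or Atf5 was marked.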

How the results depend on the processing

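Over 17 alternatives the Atf4 difference stayed between 0.51 and 0.62 and had an unadjusted p below 0.05 in every one, but passed the adjusted threshold in 5. It was lost without a filter (0.57, adjusted p of 0.354), without a variance trend (0.57, 0.215), after quantile normalization (0.55, 0.0611) and when mitochondrially encoded and haemoglobin genes were taken out of the scaling (0.56, 0.0551). The number of family members past the threshold was 0 in these 4 settings and ranged from 0 to 1 when a library was left out. Over all genes the 6 calls became 0 without a filter and 0 without a variance trend, and 0 to 3 with a library left out, and the 2 calls among listed related genes became 0, 0 and 0 to 1.

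The replicate number as a block left 0 calls over all genes, 0 in the family and 0 in the lists, with Atf4 at 0.57 (adjusted p of 0.249). No sign of pairing by number was seen: same-numbered deviations correlated at -0.082 to 0.035, and 1 of 4 controls correlated best with the mutant of its number. With 4 libraries per group, a weak pairing could go unseen.

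No relative passed the adjusted threshold in any of the 17. Atf3 stayed between -0.33 and -0.20, with an unadjusted p below 0.05 in all 17. Atf5 stayed between -0.28 and -0.16 and Jdp2 between -0.67 and -0.33, each below 0.05 in 14. The sign of 4 relatives changed. Creb1 was -0.0039 with mitochondrially encoded and haemoglobin genes out of the scaling, and stayed above 0 in the other 2 scalings. Without single libraries Creb1 ranged from -0.0090 to 0.013, Atf1 from -0.044 to 0.038, Atf7 from -0.20 to 0.013 and Creb3 from -0.021 to 0.021.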

Other observations

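The C/EBP-ATF site was also counted over all tested genes with a RefSeq start window, 10705 in all. Of the 253 genes that held it, 6.32% had lower mutant values with p under 0.05 before adjustment and 3.16% higher ones. The lower ones include Atf3, Jdp2, Asns and Pycr1, whose values were known when the site was chosen, so these shares are descriptions. Among all 10705 the shares were 2.99% and 2.83%. None of the 253, a count of 0, passed the adjusted threshold in limma. Of 14 listed ATF4 targets with a window, 6 held it: Asns, Pycr1, Chac1, Slc7a11, Vldlr and Nupr1. Over all 32851 start windows 3.45% held it. Chac1, Slc7a11 and Nupr1 were too low to be tested. The site is one that ATF4 binds in known targets, so this count is a description. Creb5 was the 1 gene of 8 with a window among the other ATF, CREB and BATF genes that held the site.

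The genes whose deviations from their group means were most like those of Atf4 over the 8 libraries were Hectd2os (r = 0.952), Gstm1 (0.952), Nktr (0.949) and 1600020E01Rik (0.943), out of 11617 genes with a mean of at least 5 TPM. These are descriptions of the top of a search. By the same measure Atf7 had r = 0.887 with Atf4 and the other 8 relatives had r between -0.31 and 0.41. Mutant replicates 3 and 4, whose Atf4 deviations lay farthest from the median deviation, were then left out. Deviations were still taken from the group means of all 8 libraries, so the values with and without these libraries are not fully alike. Over the remaining 6 libraries r was 0.766 for Atf7 and 0.765 for Crem, which had 0.399 over all 8. The values of a library share its scaling, and no p is given. The 4 genes had unadjusted p-values of 0.544 to 0.977 between the genotypes in limma.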
